A study of Mus musculus with 16 samples.

Results

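The cytosolic and endoplasmic reticulum (ER) heat shock chaperones were followed as 10 genes of the 39179 in the count table: Hspa1a, Hspa1b, Hspa8, Hsph1, Hsp90aa1, Hsp90ab1, Dnajb1 and Hspb1 in the cytosol, and Hspa5 and Hsp90b1 in the ER. They were listed by name and found by mapping the gene identifiers to mouse symbols, with no threshold on a measured value. RNA was sequenced from the brains of 16 mice, 4 in each of 4 groups: C57/BL6 wild-type mice (WT) and mice homozygous for the knock-in mutation V338Y in Mrps5, each killed 3 or 19 months old. The product of Mrps5 sits in the small subunit of mitochondrial ribosomes, and V338Y is a germline missense change that makes them misread. The groups share the tissue label and no transgene or treatment, though tissue markers differed between them, as given below. The study's methods give total cortex as the tissue. The counts do not hold the mutation, so the genotype rests on the labels.

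Heat shock proteins are chaperones: they bind unfolded stretches of other proteins and help them fold, or hand them on for degradation. The Hsp70 proteins do this in cycles of ATP binding and hydrolysis that J-domain proteins start and nucleotide exchange factors end, and the Hsp90 proteins take over late-folding clients such as kinases and steroid receptors. Transcription of the cytosolic set is driven by heat shock factor 1 (Hsf1) when unfolded protein builds up, through inverted repeats of the unit GAA, whereas the ER set answers to the unfolded protein response through the ER stress element. Neurons express the constitutive forms, Hspa8 and the Hsp90 genes, at high levels, and inducible Hsp70 at low levels.

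The sequencing depth was between 6181448 and 19601664 counts per mouse, and levels are given as CPM, the usual depth-scaled count, with library sizes scaled by the trimmed mean of M values (TMM). The lowest count of a member in any mouse was 38, for Hspa1a, and the highest was 32020, for Hspa8. Age was not the only difference between the young and the old mice. The Y-linked gene Ddx3y was at 96.7 to 128 CPM in the 3-month mice and at 0 in the 19-month mice, and Xist, the RNA of the inactive X chromosome, was at 0.443 to 1.19 and at 705 to 1182 CPM. These transcripts are those of males at 3 months and of females at 19 months, whereas the study's methods describe every animal as female. Age and sex therefore cannot be told apart in these mice. The summed level of the 12 cerebellum markers was 911 to 1503 CPM in WT mice of 3 months, 225 in V338Y mouse 14, 1625 to 2354 in the other V338Y mice of 3 months and 162 to 190 at 19 months, while the 7 cortex markers summed to 652 to 842 CPM in all groups. In the WT age comparison all 7 endothelial, all 7 astrocyte, all 7 microglia and all 6 meningeal markers were higher at 19 months and 6 of 8 neuron markers were lower. Of all genes tested 31.4% were higher and 31.5% lower. The part of these markers in the results below was not tested. Fewer cells of a type and less RNA per cell cannot be told apart in these samples.

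Per kilobase of exon, the chaperones spanned a wide range. In WT mice of 3 months Hspa8, the constitutive cytosolic Hsp70, led with 370 ± 30.5 CPM per kb (SD, n = 4), followed by Hsp90ab1, the constitutive cytosolic Hsp90, with 342 ± 18.8. Hsp90aa1, the more inducible Hsp90, had 176 ± 15.5 CPM per kb. Hspa5, the ER Hsp70 also known as BiP, had 80.2 ± 11.7 and Hsp90b1, the ER Hsp90 also known as GRP94, had 78.2 ± 8.56 CPM per kb. Hsph1, a nucleotide exchange factor for Hsp70 that also disaggregates proteins, stood at 29.2 ± 3.61 CPM per kb, Dnajb1, the J-domain partner of inducible Hsp70, at 14.7 ± 1.98, and Hspb1, the small heat shock protein Hsp27, at 5.54 ± 1.13. The inducible Hsp70 genes came last, Hspa1b with 2.31 ± 0.661 and Hspa1a with 2.21 ± 0.558 CPM per kb. The ranges of Hspa8 and Hsp90ab1, of Hspa5 and Hsp90b1, and of Hspa1b and Hspa1a overlapped in these mice. Together the 10 genes made 0.424% of the counts in WT mice of 3 months, 0.399% in V338Y mice of 3 months, 0.355% in WT mice of 19 months and 0.378% in V338Y mice of 19 months.

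**Figure D1:**
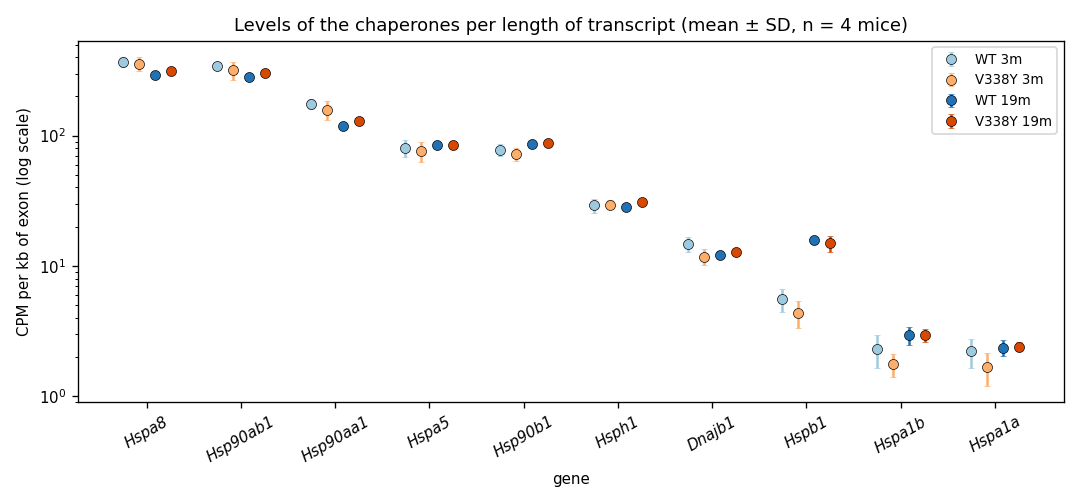
Level of each chaperone in CPM per kb of exon on a log axis, mean ± SD over the 4 mice of each group. Hspb1 lies below Dnajb1 in both 3-month groups (5.54 against 14.7 CPM per kb in WT) and above it in WT mice of 19 months (15.7 against 12.2).

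The order changed in the old mice at 2 places. Hspb1 rose past Dnajb1, with 15.7 ± 0.956 against 12.2 ± 0.714 CPM per kb in WT mice of 19 months, where the ranges did not overlap. In V338Y mice of 19 months the values were 14.9 ± 2.18 and 12.7 ± 0.592, with overlapping ranges. The ER pair exchanged places in both 19-month groups, but its ranges overlapped in every group. At 19 months in V338Y mice Hspa8 lay above Hsp90ab1 in all mice, 312 to 320 against 293 to 306 CPM per kb.

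Hspa1a and Hspa1b lie next to each other on chromosome 17 (GRCm38 annotation, minus strand, 34969190 to 34972156 and 34956436 to 34959238). Of the windows of 1 read length along the Hspa1a transcript, 42% occurred in Hspa1b as well, and of those of Hspa1b 44.6% occurred in Hspa1a, so their counts could be exchanged and their sum is given too. Hspa1a made between 42.2% and 52.7% of the sum in the 16 mice. Their promoters are close copies, with 296 of 300 bases identical in the same window around the RefSeq start site. The stretches from 130 to 11 bases upstream are shown because they hold the only match to the heat shock element in that window. They are from GRCm38.p6 at chr17:34972167-34972286 and chr17:34959249-34959368, both read on the minus strand, and the capitals mark GAANNTTC, the inverted pair of the unit.
Hspa1a: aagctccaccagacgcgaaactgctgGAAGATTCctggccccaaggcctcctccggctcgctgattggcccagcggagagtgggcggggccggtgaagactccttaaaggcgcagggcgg
Hspa1b: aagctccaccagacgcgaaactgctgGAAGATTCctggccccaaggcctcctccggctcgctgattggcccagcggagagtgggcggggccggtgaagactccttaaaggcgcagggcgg
The element lay at positions -104 to -97, counted from 0 at the start site.

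Promoters of 7 of the 10 members were found in RefSeq, 9 windows of 300 bases in all, and both strands were searched. GAANNTTC, which reads the same on both strands, was in 7.86% of the 32851 promoters of this length, and TTCNNGAA, the same unit in the other orientation, was in 8.52%. Hspb1 had GAANNTTC at 2 places, -117 to -110 and -97 to -90, in the stretch at chr5:135887779-135887898 on the plus strand. It is shown because Hspb1 had the largest change of the members in both age comparisons, and the capitals again mark the motif.
Hspb1: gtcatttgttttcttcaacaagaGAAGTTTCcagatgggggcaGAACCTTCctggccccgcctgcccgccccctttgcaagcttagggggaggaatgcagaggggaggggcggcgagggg
Hsph1 held the longer form TTCNNGAANNTTC, which overlaps both pairs, downstream of its start site at positions 15 to 27 or 36 to 48 depending on the start site used, a form found in 0.603% of all promoters. It also held TTCNNGAA upstream, at -54 to -47 or -33 to -26. Dnajb1 had no match to these letters in either of its windows.

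The ER genes had a different motif. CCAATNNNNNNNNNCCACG, the ER stress element, was found in 39 of the 32851 promoters, 0.119%, and both ER members were among them. Hspa5 had it at -65 to -47 (chr2:34772019-34772048, plus strand) and Hsp90b1 had it at -212 to -194 and, on the opposite strand, at -107 to -89 (chr10:86705515-86705664, minus strand). The stretches are shown for comparison with the cytosolic genes, with the element in capitals.
Hspa5: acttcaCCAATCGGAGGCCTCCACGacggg
Hsp90b1: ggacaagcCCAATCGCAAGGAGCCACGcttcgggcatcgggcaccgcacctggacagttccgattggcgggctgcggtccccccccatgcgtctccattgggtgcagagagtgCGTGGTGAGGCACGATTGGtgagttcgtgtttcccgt
None of the cytosolic members with a promoter held the ER stress element, and neither ER member held a GAA pair. A match in letters is a description of the sequence and says nothing of binding in these brains.

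The comparison of V338Y with WT mice at 19 months asks whether misreading in mitochondria was accompanied by a chaperone response outside them in old brains. None of the 10 members passed an adjusted p of 0.05 in edgeR's quasi-likelihood test, where 3.12% of all genes tested did, and 4 had an unadjusted p below 0.05, where 16.2% of all genes had. Those 4 were the abundant cytosolic genes, each slightly higher in V338Y. DESeq2 called 1 of the 10, Hspa8.

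Hspa8 was at 1306, 1242, 1273 and 1239 CPM in the WT mice (mice 12 to 15) and at 1341, 1354, 1376 and 1370 CPM in the V338Y mice (mice 17 to 20). Every V338Y mouse was above every WT mouse, by a log2 fold change of 0.10 ± 0.0356 (SE; edgeR adjusted p = 0.118). Hsph1 was at 213, 200, 204 and 199 CPM in WT and at 225, 214, 230 and 222 CPM in V338Y mice, again without overlap, with a log2 fold change of 0.13 ± 0.0381 (edgeR adjusted p = 0.0683). Hsp90ab1 was at 834, 821, 869 and 850 CPM in WT and at 906, 917, 905 and 878 CPM in V338Y mice, with a log2 fold change of 0.10 ± 0.0366 (edgeR adjusted p = 0.171). Hsp90aa1 was at 495, 436, 470 and 461 CPM in WT and at 512, 518, 517 and 493 CPM in V338Y mice, where WT mouse 12 lay just above V338Y mouse 20, with a log2 fold change of 0.13 ± 0.0397 (edgeR adjusted p = 0.0704). Thus 3 of the 10 members had groups that did not overlap, where 9.31% of all genes tested had such groups. The difference in all 4 genes was small, with folds of 1.07 to 1.09, and without WT mouse 12 Hsph1 (adjusted p = 0.0338) and Hsp90aa1 (adjusted p = 0.0227) passed the threshold. With library sizes left unscaled by TMM, Hspa8, Hsph1 and Hsp90aa1 passed it, and the calls over all genes turned from 196 higher and 316 lower to 357 higher and 263 lower.

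For the other members the groups overlapped and the estimates were closer to 0, with 2-SE intervals that, except for Hspa5, also hold the 0.10 of Hspa8. The sum of Hspa1a and Hspa1b was at 17.8, 14.6, 13.3 and 15.2 CPM in WT and at 14, 14.9, 16.1 and 16.4 CPM in V338Y mice of 19 months, a log2 fold change of 0.01 ± 0.0905, so that differences between -0.17 and 0.19 lay within 2 SE. Hspa5 had a log2 fold change of 0.01 ± 0.0428, Hsp90b1 of 0.04 ± 0.0378, Dnajb1 of 0.06 ± 0.0591 and Hspb1 of -0.08 ± 0.0945, all with overlapping groups. For Hspa5 the 2-SE interval ran from -0.08 to 0.09 and for Hsp90b1 from -0.03 to 0.12.

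At 3 months no member passed the threshold between V338Y and WT, where 0.0616% of all genes tested did, and 1, Dnajb1, had an unadjusted p below 0.05, where 5.02% of all genes had. DESeq2 called none of the 10 either. Dnajb1 was at 54.3, 39, 48.7 and 46.6 CPM in WT mice 9 to 12 and at 39.3, 43.8, 30.6 and 38 CPM in V338Y mice 13 to 16, with a log2 fold change of -0.30 ± 0.112 (edgeR adjusted p = 0.926). The groups of all 10 members overlapped. In WT mice the sum of Hspa1a and Hspa1b was at 13.2, 9.59, 11.6 and 17.7 CPM. In V338Y mice it was at 11.4, 12, 6.88 and 9.15 CPM. The log2 fold change was -0.38 ± 0.208, with a wide 2-SE interval from -0.80 to 0.04. WT mouse 12 was highest and V338Y mouse 15 lowest. Hspa5 was at 325, 295, 328 and 410 CPM in WT and at 353, 374, 253 and 308 CPM in V338Y mice of 3 months, a log2 fold change of -0.07 ± 0.128 that turned to 0.03 without WT mouse 12 and to 0.02 without V338Y mouse 15.

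**Figure D2:**
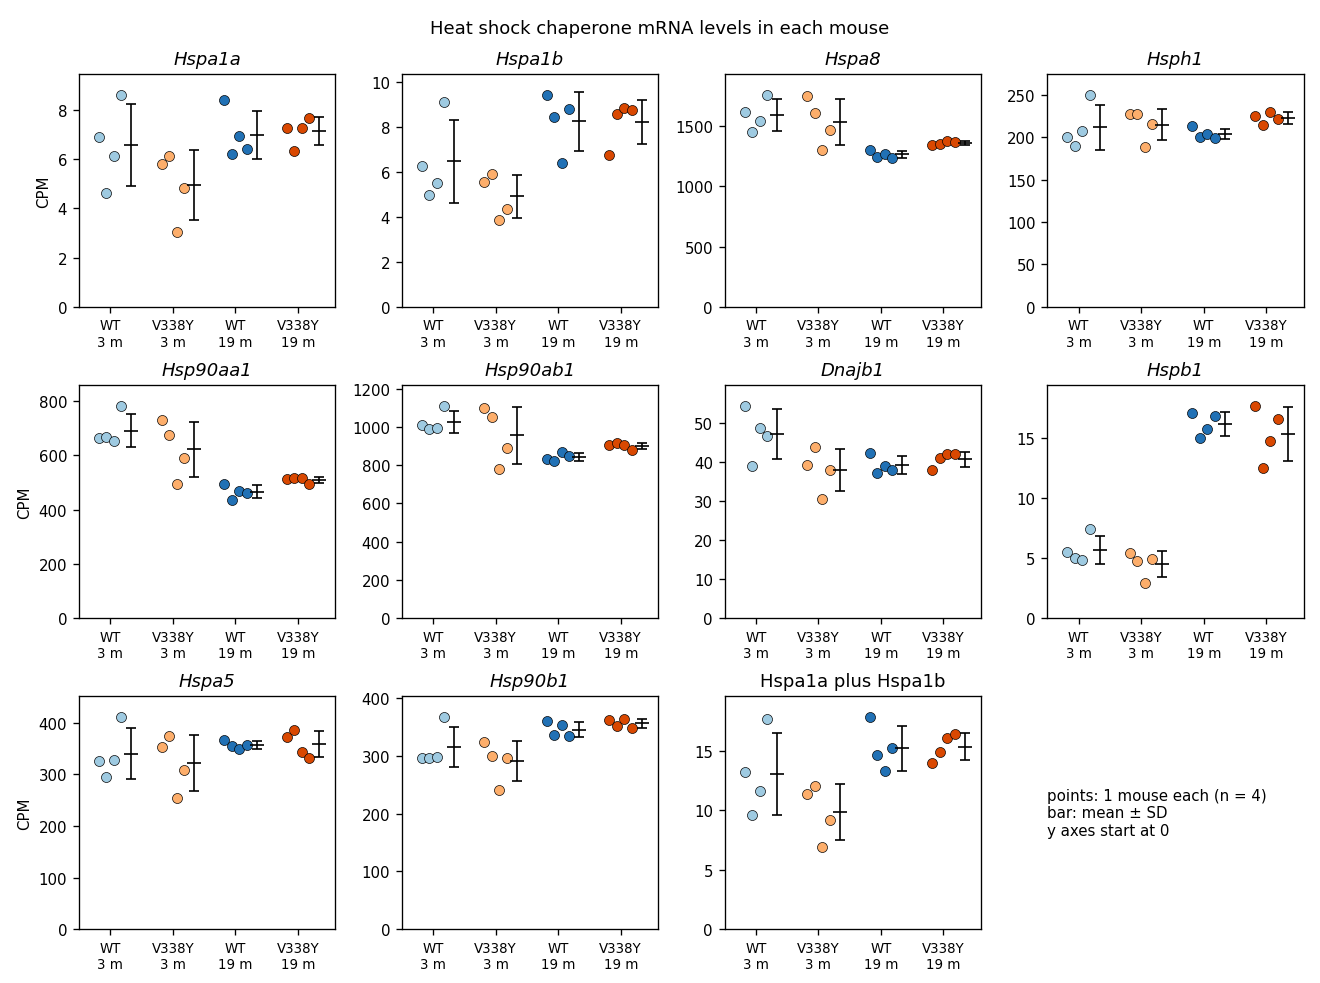
CPM of each chaperone and of the sum of Hspa1a and Hspa1b in every mouse, 1 point per mouse, with the mean ± SD of the 4 mice of each group; the axes start at 0. Hspb1 lies between 2.95 and 7.4 CPM in the 3-month mice and between 12.5 and 17.7 CPM in the 19-month mice.

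Age moved the members in both directions in WT mice. The abundant cytosolic chaperones Hspa8, Hsp90aa1 and Hsp90ab1 and the J-domain protein Dnajb1 fell, and Hspb1 and Hsp90b1 rose. The test passed 6 of the 10 members, where it passed 62.8% of all genes tested: 2 members were higher at 19 months (31.4% of all genes) and 4 lower (31.5% of all genes). The share among the members was thus near that of the whole table. With unscaled library sizes, all genes divided into 4175 higher and 6321 lower calls in place of 5050 and 5065, and Hsp90b1 lost its call. With the cerebellum marker level as a covariate, which in WT mice nearly follows age, none of the 10 members and 88 of all genes were called by edgeR.

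Hspb1 had the largest change among the members. It was at 5.54, 5.02, 4.87 and 7.4 CPM in WT mice 9 to 12 of 3 months and at 17.1, 15, 15.8 and 16.9 CPM in WT mice 12 to 15 of 19 months, 2.85-fold higher (log2 fold change 1.51 ± 0.123, edgeR adjusted p = 4.5e-12). Every old mouse was above every young one. Hspb1 binds unfolding proteins and actin without using ATP and is, in the brain, a gene of vessel walls and reactive astrocytes more than of most neurons. The summed levels of the 7 endothelial markers were 220 to 236 CPM in the young and 1021 to 1085 CPM in the old WT mice, those of the 7 astrocyte markers were 2941 to 3188 and 6606 to 7575 CPM, and those of the 6 meningeal markers were 79.9 to 116 and 255 to 303 CPM. No gene of these lists was at 0 in either group, and their part in the change of Hspb1 was not tested.

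Among the cytosolic genes that fell, Hsp90aa1 fell most, from 663, 666, 651 and 781 CPM in WT mice of 3 months to 495, 436, 470 and 461 CPM in WT mice of 19 months (log2 fold change -0.56 ± 0.0522, edgeR adjusted p = 5.4e-09). Hspa8 went from 1619, 1449, 1540 and 1759 CPM to 1306, 1242, 1273 and 1239 CPM (log2 fold change -0.32 ± 0.0467, edgeR adjusted p = 9.3e-07), and Hsp90ab1 from 1013, 989, 994 and 1109 CPM to 834, 821, 869 and 850 CPM (log2 fold change -0.27 ± 0.0415, edgeR adjusted p = 1.3e-06). For none of these 3 genes did the young and the old mice overlap. Counting Hspb1, 4 of the 10 members had WT age groups without overlap, against 55.4% of all genes. Dnajb1 fell by 0.24 on the log2 scale (SE 0.0806, edgeR adjusted p = 0.0129), with overlapping groups, and lost its call without WT mouse 13 of 19 months (adjusted p = 0.0536).

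The ER members moved little in WT mice. Hsp90b1 was at 297, 297, 299 and 367 CPM at 3 months and at 360, 336, 353 and 334 CPM at 19 months, a log2 fold change of 0.15 ± 0.0591 (edgeR adjusted p = 0.0399). The young mouse 12 stood above all the old mice, and the call was kept in 2 of the 8 fits that left out 1 mouse. Hspa5 was at 325, 295, 328 and 410 CPM at 3 months and at 367, 354, 348 and 357 CPM at 19 months, a log2 fold change of 0.08 ± 0.0939 (edgeR adjusted p = 0.469). Without WT mouse 12 of 3 months Hspa5 was higher at 19 months, with a log2 fold change of 0.19 and an adjusted p of 4.5e-04.

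The inducible Hsp70 genes did not pass the test in WT mice. Hspa1a had a log2 fold change of 0.14 ± 0.163 (edgeR adjusted p = 0.477), Hspa1b of 0.38 ± 0.169 (adjusted p = 0.0549), and their sum of 0.26 ± 0.17 (edgeR adjusted p = 0.201). The sum was at 13.2, 9.59, 11.6 and 17.7 CPM in the young mice and at 17.8, 14.6, 13.3 and 15.2 CPM in the old. Without the young mouse 12 its log2 fold change was 0.46, with an adjusted p of 0.00153, and that of Hspa1b was 0.60, with an adjusted p of 0.00109. Hsph1 had a log2 fold change of -0.04 ± 0.0691 and a 2-SE interval from -0.18 to 0.10.

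In V338Y mice 5 of the 10 members passed the test of age, against 48.8% of all genes tested: 4 were higher at 19 months (23.1% of all genes) and 1 lower (25.7% of all genes). The genes that rose were Hspb1, Hspa1b, Hspa1a and Hsp90b1, and the gene that fell was Hsp90aa1. Hspb1 was at 5.42, 4.73, 2.95 and 4.93 CPM in V338Y mice 13 to 16 of 3 months and at 17.7, 12.5, 14.8 and 16.6 CPM in mice 17 to 20 of 19 months, 3.36-fold higher (log2 fold change 1.75 ± 0.159, edgeR adjusted p = 3.0e-06). All old mice were above all young ones. The endothelial, astrocyte and microglia markers, 7 each, were all higher at 19 months here as well.

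The sum of Hspa1a and Hspa1b was 1.55-fold higher at 19 than at 3 months in V338Y mice. It was at 11.4, 12, 6.88 and 9.15 CPM at 3 months and at 14, 14.9, 16.1 and 16.4 CPM at 19 months (log2 fold change 0.63 ± 0.139, edgeR adjusted p = 0.00272), without overlap, and it was called in all 8 fits that left out 1 mouse. Of its parts, Hspa1b had a log2 fold change of 0.74 ± 0.146 (edgeR adjusted p = 0.00116) and Hspa1a of 0.51 ± 0.176 (edgeR adjusted p = 0.0294), the latter called in 4 of the 8 such fits. Hsp90b1 was at 324, 300, 242 and 297 CPM at 3 months and at 362, 352, 365 and 348 CPM at 19 months (log2 fold change 0.29 ± 0.0715, edgeR adjusted p = 0.005), with every old mouse above every young one. These 3 genes and Hspb1 were the 4 members whose V338Y age groups did not overlap, against 44.2% of all genes.

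Hsp90aa1 was at 730, 673, 494 and 590 CPM in V338Y mice of 3 months and at 512, 518, 517 and 493 CPM at 19 months, a log2 fold change of -0.29 ± 0.0917 (edgeR adjusted p = 0.0193) with overlapping groups. The young mouse 15 was level with the old mice. The call was kept in 5 of the 8 fits without 1 mouse. Hspa8 was at 1749, 1613, 1306 and 1469 CPM at 3 months and at 1341, 1354, 1376 and 1370 CPM at 19 months, with a log2 fold change of -0.18 ± 0.0739 that did not pass the test (edgeR adjusted p = 0.0597) and that did without the young mouse 15 (-0.24, adjusted p = 0.00513). Hsp90ab1 (-0.09 ± 0.0861), Dnajb1 (0.10 ± 0.0872), Hspa5 (0.15 ± 0.0993) and Hsph1 (0.04 ± 0.0598) had log2 fold changes that did not pass the test. Against mouse 14 alone, the 3-month mouse with few cerebellum transcripts, the old V338Y mice had log2 fold changes of 1.70 for Hspb1, 0.26 for Hsp90b1, 0.50 for Hspa1b, 0.22 for Hspa1a and -0.39 for Hsp90aa1, where the whole young group gave 1.75, 0.29, 0.74, 0.51 and -0.29. Hspa8 had -0.24, Hsp90ab1 -0.22, Hsph1 -0.02, Dnajb1 -0.09 and Hspa5 -0.06 against mouse 14, where the whole young group gave -0.18, -0.09, 0.04, 0.10 and 0.15. Mouse 14 was picked after the data were seen, and with 1 young mouse these values are given without a test. With the cerebellum marker level as a covariate, Hspb1 alone of the members stayed called in V338Y mice.

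**Figure D3:**
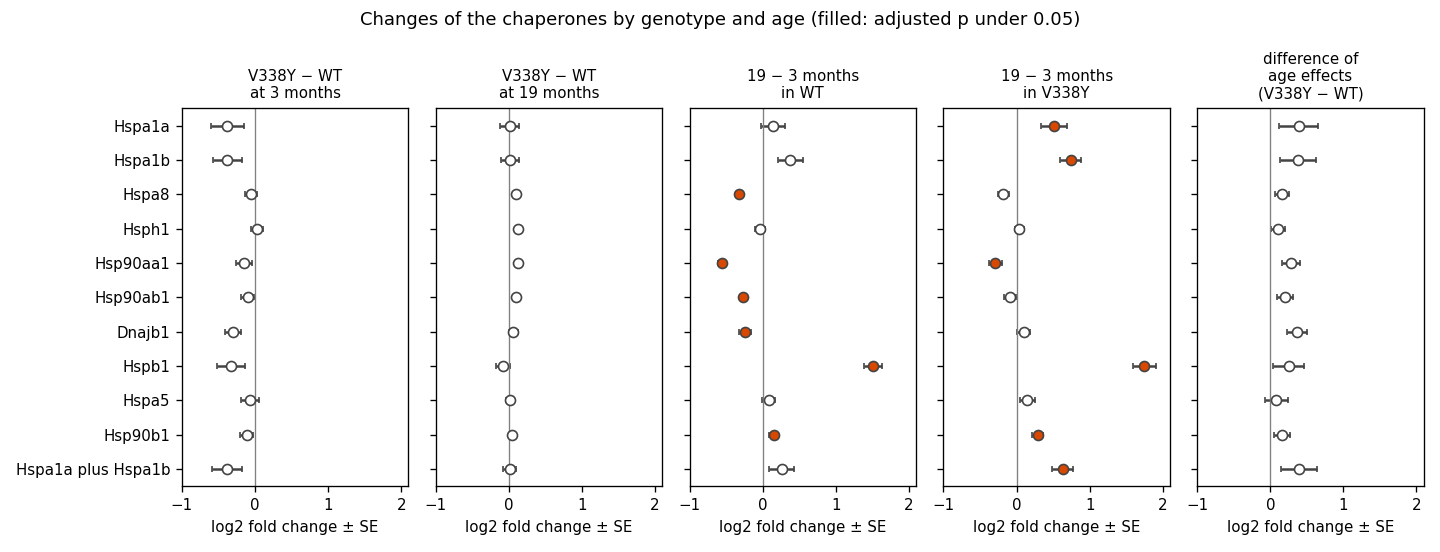
Log2 fold change ± SE of each chaperone in the 4 pairwise comparisons and the difference of the age effects; filled points have an edgeR adjusted p under 0.05. Filled points appear in the age comparisons alone, with Hspb1 at 1.51 in WT and 1.75 in V338Y mice.

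The age comparisons and the genotype comparisons share mice, so that a low value in 1 young group enters both. Whether the difference between the ages varied with genotype was tested as a difference of the age effects in a fit of all 16 mice. No member passed the test, where 0.0535% of all genes tested did, 2 members had an unadjusted p below 0.05, where 10.2% of all genes had, and DESeq2 called none of the 10. The estimates of all 10 were above 0, meaning a larger rise or a smaller fall in V338Y mice, from 0.08 ± 0.156 for Hspa5 to 0.39 ± 0.267 for Hspa1a on the log2 scale. The members varied together from mouse to mouse, so that these 10 signs are not independent. The 2 with a low unadjusted p were Dnajb1, with 0.36 ± 0.135 (edgeR adjusted p = 0.385), and Hsp90aa1, with 0.28 ± 0.126 (edgeR adjusted p = 0.458). For the sum of Hspa1a and Hspa1b the difference was 0.39 ± 0.245 (edgeR adjusted p = 0.601). The sum therefore passed the test of age in V338Y and not in WT mice without a difference between them that passed the test. That of Hspa5 turned to -0.02 without WT mouse 12 or without V338Y mouse 15 of 3 months.

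The partners of the cytosolic chaperones were mostly lower at 19 months. Of all genes tested 31.5% were lower in WT and 25.7% in V338Y mice. Of 20 measured co-factors of Hsp70 (of 21 listed), 17 were lower and 2 higher in WT mice of 19 months, with a median log2 fold change of -0.36 where that of all genes was -0.005, and 13 were lower and 2 higher in V338Y mice, with a median of -0.25 where that of all genes was -0.029. Stub1, the ubiquitin ligase CHIP that sends Hsp70 clients to the proteasome, fell by 0.61 in WT and fell by 0.54 in V338Y mice on the log2 scale. Bag2, which blocks that ligase, fell by 0.63 in WT mice. The J-domain protein Dnajb6 fell by 0.55 in WT and fell by 0.46 in V338Y mice. Against this, Bag3, which with Hspb8 directs clients to autophagy, rose by 0.68 ± 0.14 in WT and 0.55 ± 0.164 in V338Y mice, and Hspa2, an Hsp70 otherwise known from the testis, rose by 0.30 ± 0.0662 and 0.53 ± 0.0817.

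Of 14 Hsp90 co-chaperones, 11 were lower in WT and 10 lower in V338Y mice of 19 months and none was higher, with medians of -0.49 and -0.27. Of all genes 31.5% were lower in WT and 25.7% in V338Y mice. Cacybp fell by 0.66 in WT and fell by 0.49 in V338Y mice, and Ahsa1, which speeds up the ATPase of Hsp90, fell by 0.63 in WT. The phosphatase Ppp5c fell by 0.54 in WT and fell by 0.47 in V338Y mice. The 8 subunits of TRiC, the chaperonin that folds actin and tubulin, were all lower in WT (median -0.45) and 7 were lower in V338Y mice (median -0.28), with Cct8 (-0.53 and -0.43) and Cct6a (-0.51 and -0.43) in front. Of the 8 neuron markers, 6 were lower in WT and 5 in V338Y mice of 19 months, and their part in these falls was not tested.

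Of the 7 other small heat shock proteins 6 were measured. Hspb8, the partner of Bag3, rose by 0.50 ± 0.091 in WT and 0.34 ± 0.124 in V338Y mice, and Cryab, the alphaB-crystallin of glia, rose by 0.37 ± 0.114 in V338Y mice. The other call in both genotypes was Hspb2, named after its values were seen, at 1.17 ± 0.465 and 1.35 ± 0.321. Of the 5 heat shock factors and their regulators, Hsf1 fell by 0.40 in WT (SE 0.0797, edgeR adjusted p = 6.4e-05) and had -0.18 ± 0.0718 in V338Y mice (edgeR adjusted p = 0.0532), Hsf2 fell by 0.23 in WT and fell by 0.36 in V338Y mice, and Hsbp1, a small protein that binds Hsf1, fell by 0.56 in WT and fell by 0.47 in V338Y mice. Hsf5, named after its values were seen, rose by 0.85 ± 0.298 in WT mice.

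**Figure D4:**
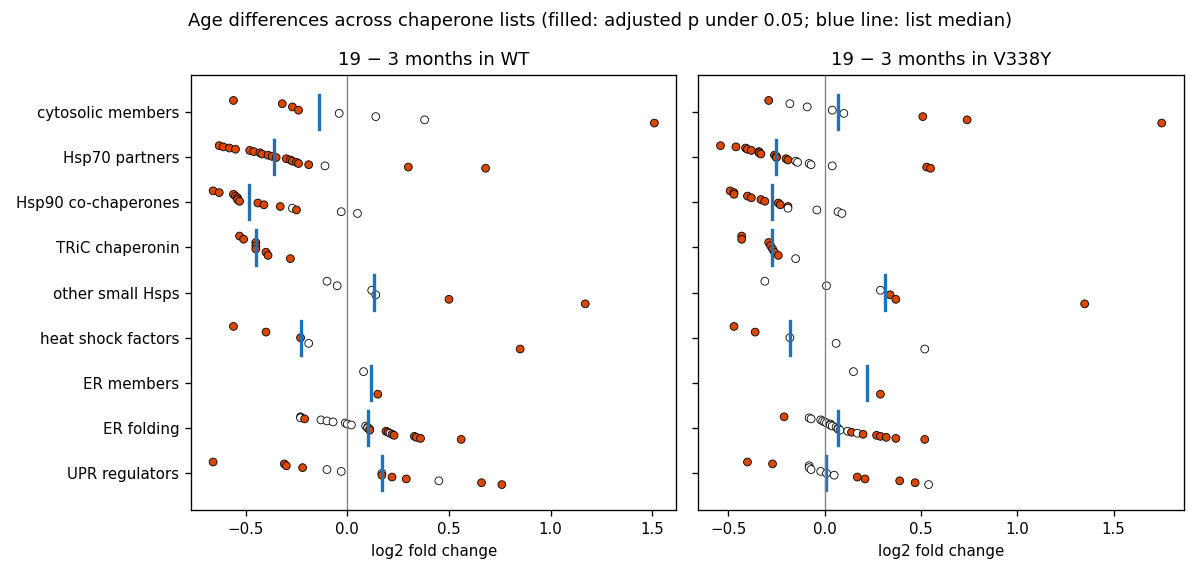
Log2 fold change of each gene of the chaperone lists between 19 and 3 months in WT (left) and V338Y mice (right); filled points have an edgeR adjusted p under 0.05 and the blue line is the list's median. The Hsp70 partners, Hsp90 co-chaperones and TRiC lie mostly below 0 (medians -0.36, -0.49 and -0.45 in WT) and the ER folding genes mostly near or above it (median 0.10).

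In the ER lists calls went in both directions. Of 23 ER chaperones and folding enzymes beside the members, 9 were higher and 2 lower in WT mice of 19 months (median 0.10). In V338Y mice 7 were higher and 1 lower (median 0.07). Of all genes 31.4% were higher in WT and 23.1% in V338Y mice, so the shares of higher calls were not far from those of all genes. Lower were 31.5% of all genes in WT and 25.7% in V338Y mice, so the list had a smaller share of lower calls in both. Dnajc3, the J-domain co-chaperone of Hspa5 that also inhibits the kinase Eif2ak3, rose by 0.56 ± 0.0489 and 0.52 ± 0.0629, and P4hb, the protein disulfide isomerase, by 0.36 ± 0.0421 and 0.37 ± 0.0609. Dnajb11, another J-domain partner of Hspa5, fell by 0.23 and fell by 0.21, and Fkbp2, a prolyl isomerase, fell by 0.21 in WT mice. Of 13 regulators of the unfolded protein response, 5 were higher and 4 lower in WT and 4 higher and 2 lower in V338Y mice. Ern1, the ER stress sensor IRE1, rose by 0.76 ± 0.0828 and 0.39 ± 0.12, and Edem1, which takes misfolded glycoproteins out of the folding cycle, by 0.66 ± 0.0722 and 0.47 ± 0.0961. Atf4, the transcription factor of the integrated stress response, fell by 0.66 and fell by 0.40, and Ddit3, which encodes CHOP, fell by 0.31 in WT. Ppp1r15a, the phosphatase subunit that ends that response, fell by 0.30 in WT and fell by 0.27 in V338Y mice.

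Between the genotypes few of these genes differed, and few of all genes did, with 3.12% of all genes tested called at 19 months. There 1 of 20 Hsp70 co-factors, 1 of 8 TRiC subunits and 1 of 6 small heat shock proteins passed the test. At 19 months Bag6 (0.15 ± 0.04, edgeR adjusted p = 0.0334), Cct3 (0.17 ± 0.0406, edgeR adjusted p = 0.017) and Cryab (0.25 ± 0.061, edgeR adjusted p = 0.0176) were higher in V338Y mice, and no gene of the Hsp90 co-chaperone, heat shock factor, ER folding or unfolded protein response lists passed the test. Hsf1 had 0.16 ± 0.077 (edgeR adjusted p = 0.303). At 3 months and for the difference of the age effects, no gene of any of these lists passed it, where 0.0616% and 0.0535% of all genes did.

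The members varied together from mouse to mouse within a group, chiefly at 3 months. The median SD of log2 CPM over the 10 members was 0.19 in WT and 0.24 in V338Y mice of 3 months, where the median over all genes with a mean of at least 50 counts was 0.10 and 0.13, and it was 0.06 in both 19-month groups, where all genes had 0.09 and 0.08. All 10 members were below their group mean in V338Y mouse 15 (mean deviation -0.34) and in WT mouse 10 (-0.19), all 10 were above it in V338Y mice 13 (0.19) and 14 (0.17), and 9 were above it in WT mouse 12 of 3 months (0.25). Taken as deviations of log2 CPM from the group means over the 16 mice, the 45 pairs of members had Pearson correlations from 0.48 to 0.95, with a median of 0.81 (Spearman's median 0.66). The values of 1 mouse share a library, its depth and its tissue cut, so that these correlations are a description. No such median was taken over pairs of other genes, so it is not shown to be particular to the chaperones. At 3 months the cerebellum markers summed to 1801, 225, 2354 and 1625 CPM in V338Y mice 13 to 16. In WT mice 9 to 12 they summed to 911, 1501, 1278 and 1503 CPM. Their part in the deviations was not tested. Without WT mouse 12 and V338Y mouse 15 the median was 0.65. Within the 8 mice of 3 months it was 0.88, and within the 8 mice of 19 months it was 0.27, where 30 of the 45 pairs were above 0.

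Cirbp and Rbm3, RNA-binding proteins whose transcripts are known to rise when cells are cooled and fall when they are warmed, ran against the inducible Hsp70 sum. Over the 16 mice all 10 members had a negative Pearson correlation with Cirbp, -0.38 for Dnajb1, but only 6 did within the 19-month mice. The correlation of Cirbp and Rbm3 with the sum of Hspa1a and Hspa1b was -0.82 and -0.78 over the 16 mice, and 5 and 29 of the 12853 genes compared had a lower value. Cirbp was at 46.6, 54.4, 48 and 36.5 CPM in WT mice 9 to 12 of 3 months, where mouse 12 had the highest and mouse 10 the lowest Hspa1 sum. It was at 40.8, 47.3, 50.7 and 50.6 CPM in V338Y mice 13 to 16. Without WT mouse 12 and V338Y mouse 15 the correlations were -0.78 and -0.57, and within the 19-month mice they were -0.70 and -0.11. Between the ages Cirbp fell by 0.41 in WT (edgeR adjusted p = 0.00122) and fell by 0.54 in V338Y mice (edgeR adjusted p = 1.2e-04), Rbm3 fell by 0.17 in WT mice (edgeR adjusted p = 0.0404), and its log2 fold change in V338Y mice was -0.25 ± 0.101 (edgeR adjusted p = 0.0613).

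**Figure D5:**
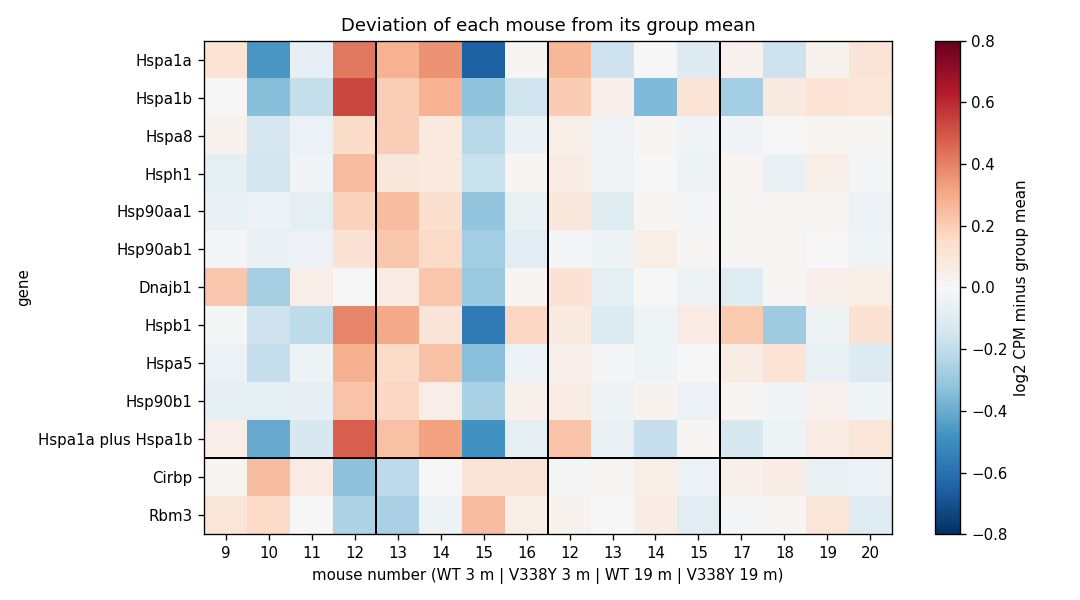
Deviation of log2 CPM from the group mean for each member, the Hspa1a and Hspa1b sum, Cirbp and Rbm3 (rows) in each of the 16 mice (columns, by group). V338Y mouse 15 of 3 months is blue throughout the chaperones (mean deviation -0.34) and WT mouse 12 of 3 months is red in 9 of the 10 members (mean deviation 0.25), with Cirbp and Rbm3 in the opposite colour.

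The genes most like the Hspa1a and Hspa1b sum by this measure were P4ha1 (0.93), Ifitm2 (0.91), Hspa8 (0.90), Ftsj3 (0.89) and Vopp1 (0.88). Those most like Hspa5 were Pdia6 (0.98), Pdia4 (0.95), Rexo4 (0.91), Fxr1 (0.91) and Pdia3 (0.90), of which the Pdia genes encode disulfide isomerases of the ER. Among the members, Hsp90aa1 and Hsp90ab1 were most alike (0.95), and Hspa5 had 0.85 with Hsp90b1 and 0.87 with Hsp90aa1.

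For genes that respond to handling or time of day, shares called for age in either direction were near or below those of all genes. The latter were 62.8% in WT and 48.8% in V338Y mice. Of 12 immediate early genes 2 were higher and 0 lower in WT mice of 19 months, where 31.4% of all genes were higher. In V338Y mice 6 were higher and 0 lower, a larger share of higher calls than the 23.1% of all genes. Among them were Egr1 (0.49 ± 0.111) and Fosb (0.52 ± 0.191) in WT and Arc (0.96 ± 0.202) and Dusp1 (0.68 ± 0.132) in V338Y mice. Of 14 clock genes 3 were higher and 6 lower in WT and 2 higher and 4 lower in V338Y mice. The clock output gene Dbp was at 73.7 to 93.3 CPM in the young and at 30.6 to 37.2 CPM in the old mice, Ciart fell by 1.28 and fell by 1.18, and Npas2 rose by 0.83 ± 0.0924 and 0.49 ± 0.0964. Arntl rose by 0.37 ± 0.0685 and 0.27 ± 0.056. Of 8 glucocorticoid-induced genes 2 were higher and 2 lower in WT and 3 higher and 1 lower in V338Y mice, with Pdk4 (1.19 and 0.87) and Zbtb16 (0.61 and 0.50) higher, Tsc22d3 (-0.40 and -0.34) lower and Errfi1 (-0.24) lower in WT. At 19 months Nr4a1 (-0.26 ± 0.0565, edgeR adjusted p = 0.00719) and Arc (-0.21 ± 0.0423, edgeR adjusted p = 0.00266) were lower in V338Y than in WT mice. The part of these lists in the chaperone values was not tested.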

How the data were processed

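The members and the gene lists were chosen with earlier results of these data known. The authors deposited 1 expected count per gene and mouse for 16 brain libraries, without normalization. The study's methods name RSEM, Ensembl 75 and GRCm37, whereas the submitters' processing notes list STAR 2.4.2a, bcl2fastq 1.8.4, featureCounts and GRCm38. The deposited counts were whole numbers rounded to 4 significant digits: all 1495 values of at least 10000 ended in 0. Identifiers were matched to GENCODE M21 (GRCm38), and 37607 of 39179 received a symbol and a position; exon lengths are unions of exons.

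Genes with at least 10 counts in 50% of the mice of 1 group were tested in R 4.3.3 with edgeR 4.0.16 (TMM, robust quasi-likelihood) and Benjamini-Hochberg adjustment over all genes kept, at 0.05. All 10 members passed this filter in every comparison. Each pairwise fit used 8 libraries. The script was tested on simulated data. The labels give mouse numbers, so the mice are separate animals. Alternatives were DESeq2 1.42.0, a likelihood-ratio test, other scalings, other filters, a threshold of 1e-05, all 16 libraries in 1 fit and each mouse left out. Genes named from the lists are the 2 largest rises and falls per comparison among those called with at least 50 normalized counts, besides Hsf1, Hsf2, Cirbp and Rbm3. Hspb2 and Hsf5 were named outside this rule and lay below 50 normalized counts. A gene given for 1 genotype can also have been called in the other. Log2 CPM used an added count of 0.5. The authors' methods state a stranded kit and single-end reads.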

Additional observations from a re-analysis of the deposited data

Results flagged for a closer look

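A mouse far from the other 3 of its group was looked for in the 4 groups of each of the 10 members and the Hspa1a and Hspa1b sum, 44 groups in all, with Dixon's ratio. Chance flags about 1 in 20 groups, and 3 were found. In WT mice of 3 months, mouse 12 had 781 CPM of Hsp90aa1 where the next mouse had 666, and 367 CPM of Hsp90b1 where the next had 299. In V338Y mice of 19 months, mouse 17 had 6.76 CPM of Hspa1b where the next had 8.59.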

How the results depend on the processing

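Of 946 alternative log2 values of the members and the sum of Hspa1a and Hspa1b, 863 kept their direction and their side of the threshold, 27 fell below it, 20 rose above it and 36 changed sign, of which 1 had been called. At 3 months and for the difference of age effects, 0 members were called in every alternative. At 19 months the count of members called was 1 with DESeq2, 3 with unscaled library sizes, 2 without a count filter and 0 to 2 without 1 mouse. In WT mice the age count was 4 at the stricter threshold of 1e-05, 5 to 8 without 1 mouse (8 without the young mouse 12) and 0 with the cerebellum marker level as a covariate, an alternative chosen after seeing the data. That covariate follows age in WT mice, and 88 of all genes were called with it, where 4600 were in V338Y mice. At the stricter threshold 4316 genes were called for age in WT and 822 in V338Y mice. In V338Y mice the age count was 1 at the stricter threshold, 3 to 6 without 1 mouse (3 without the old mouse 20) and 1 with the covariate. The V338Y fit against mouse 14 alone was also chosen after seeing the data. It takes the spread from the old mice alone, so only its log2 fold changes are given. For all genes, the 19-month genotype calls went from 512 to 120 with all 16 libraries in 1 fit, 791 without a filter and 287 to 611 without 1 mouse, the 3-month calls from 10 to between 6 and 26, and the calls of different age effects from 9 to between 1 and 57.

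The sum of Hspa1a and Hspa1b had an age log2 fold change of 0.249 in WT mice without a count filter, where it passed the threshold (adjusted p = 0.0414), and of 0.249 in V338Y mice with the covariate, where it did not. Without 1 mouse its WT age value ran from 0.114 to 0.458 and its 19-month genotype value from -0.0454 to 0.106. With the covariate, values in WT mice turned to -0.319 for Hspa1a, 0.657 for Hsph1 and 0.0643 for Hsp90aa1, and in V338Y mice to -0.0447 for Hsph1, -0.179 for Dnajb1 and -0.146 for Hspa5. With unscaled library sizes the age value of Hspa5 in WT was -0.0098 and that of Hsph1 in V338Y mice -0.0155. Against mouse 14 alone, Hsph1 had -0.0168, Dnajb1 -0.0898 and Hspa5 -0.0562.

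Without 1 mouse, further values crossed 0. For genotype at 19 months they ran from -0.0529 to 0.128 for Hspa1a, from -0.0916 to 0.0885 for Hspa1b, from -0.137 to 0.0063 for Hspb1 and from -0.0317 to 0.0417 for Hspa5. For genotype at 3 months they ran from -0.109 to 0.0135 for Hspa8, from -0.0223 to 0.116 for Hsph1 and from -0.145 to 0.0328 for Hspa5. For age in WT mice they ran from -0.0274 to 0.31 for Hspa1a and from -0.0955 to 0.0457 for Hsph1, for age in V338Y mice from -0.0045 to 0.0803 for Hsph1, and for the difference of age effects from -0.0216 to 0.162 for Hspa5. The causes of these changes were not tested.

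No paired analysis was possible because the mouse numbers shared between groups (12 to 15) belong to animals of different ages, and no groups compared share 2 numbers. Depth limits the inducible genes most, with 38 to 139 counts of Hspa1a per mouse.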
